A study of Solanum lycopersicum with 8 samples.

Results

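The auxin response factor (*ARF*) and *Aux/IAA* genes were followed in proliferating inflorescence meristems of 2 tomato (*Solanum lycopersicum*) double mutants. The members were fixed as 21 *ARF* and 21 *Aux/IAA* gene identifiers, and all 42 had a row among the 34109 genes of the deposited table. RNA was sequenced from inflorescence meristems dissected from 8-week-old plants, with 4 libraries of *ej2* *j2*, mutated in both MADS-box *SEPALLATA* paralogues *EJ2* and *J2*, and 4 libraries of *plt3* *plt7*, mutated in both *PLETHORA* paralogues *PLT3* and *PLT7*. The *PLT* alleles were made by CRISPR–Cas9 editing in the cultivar M82. Both genotypes overproliferate meristems, and no wild-type library was used here, so each value places one double mutant relative to the other. In dissected tissue, fewer cells of a type and less RNA per cell cannot be told apart.

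ARFs are transcription factors that bind auxin response elements in the promoters of auxin-regulated genes, and some activate whereas others repress their targets. Aux/IAA proteins bind ARFs and recruit TOPLESS corepressors, which keeps the target genes off at low auxin. Auxin brings Aux/IAA proteins to TIR1/AFB receptors and thereby to degradation, which frees the ARFs, and many *Aux/IAA* genes are themselves induced by auxin. In reproductive meristems, local auxin maxima mark the sites at which new primordia arise.

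No *ARF* or *Aux/IAA* gene passed the test between the double mutants. Levels are in TPM (transcripts scaled to a fixed total per library) and are corrected for transcript length, so that they can be compared between genes. Differences are on the log2(TPM + 1) scale, given as *plt3* *plt7* minus *ej2* *j2*, which understates the changes of genes with low levels. Genes whose mean reached 1 TPM were tested with limma, a linear model across all genes, at a Benjamini-Hochberg adjusted p under 0.05. Of 19544 genes tested, 359 passed (1.84%; 0.875% higher and 0.962% lower in *plt3* *plt7*, limma), against 0 of 20 tested *ARF* and 0 of 15 tested *Aux/IAA* members. At an unadjusted p under 0.05, 2 of the 20 *ARF* and 2 of the 15 *Aux/IAA* members remained (limma), beside 13.8% of all genes tested. The difference of 1 of these 4 members was above 0 and that of 3 below 0, beside 7.11% and 6.74% of all genes tested. Of the 4, Solyc07g008020 reached the filter only through *ej2* *j2*. The remaining 7 members, 1 *ARF* and 6 *Aux/IAA* genes, had means under 1 TPM.

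The libraries of a genotype differed widely from one another. The depth is unknown, since TPM values do not retain the number of reads, and no counting error is given. The Spearman correlation between libraries was 0.638 to 0.684 within *ej2* *j2*, 0.671 to 0.703 within *plt3* *plt7* and 0.564 to 0.664 between them (computed over genes, so without a test). The first principal component (24.0% of the variance) separated the genotypes, at -113 to -22.7 in *ej2* *j2* and 26.2 to 103 in *plt3* *plt7*. The second principal component (14.5% of the variance) set *ej2* *j2* replicate 2 apart, at -150 against -7.72 to 73.7 for the other 7 libraries. Data were simulated with the spread of the genes tested and 4 libraries per genotype. Changes of 2-fold, 8-fold and 32-fold in TPM + 1 were recovered at 0%, 22.4% and 68.2%. Only genes averaging at least 3 in log2(TPM + 1) were changed. Of the members tested, 19 *ARF* and 11 *Aux/IAA* genes were in that range, so the lower ones were not covered. Differences of several fold in a member could thus go without a call. The identifiers of the marker genes below were paired with their tissue from general knowledge, and the pairing was not checked. Of the 8 listed meristem marker genes, all 8 were tested and none passed (limma; 1 at an unadjusted p under 0.05, lower in *plt3* *plt7*). Their median log2 difference was -0.77, with summed levels of 275 to 538 TPM in *ej2* *j2* and 244 to 827 TPM in *plt3* *plt7*. Of 9 floral organ identity genes, 5 were tested and 2 were lower in *plt3* *plt7* (limma, adjusted p = 0.00177 for Solyc05g015750 and 0.00101 for Solyc02g089200; 3 at an unadjusted p under 0.05), with summed levels of 124 to 669 TPM in *ej2* *j2* and 295 to 815 TPM in *plt3* *plt7*. The third of these, Solyc05g056620, was at 22.4 to 526 TPM in *ej2* *j2* and at 243 to 718 TPM in *plt3* *plt7* (log2 difference 1.87, adjusted p = 0.339, limma). The 4 not tested were at 0 in all *plt3* *plt7* libraries and at most at 2.22 TPM in *ej2* *j2*, or 0.403 TPM without replicate 2. Of 7 green tissue genes, 4 were tested and none passed (limma; 2 at an unadjusted p under 0.05, both lower in *plt3* *plt7*). The median log2 difference of the tested green tissue genes was -1.01. The summed levels of the green tissue genes were 235 to 538 TPM in *ej2* *j2* and 366 to 509.7 TPM in *plt3* *plt7*. Of all genes tested, 13.8% were at an unadjusted p under 0.05 and 1.84% passed (limma). The part of the marker genes in the levels of the members was not tested.

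*ARF* transcripts were abundant in both genotypes, and no single gene led throughout. Over the 8 libraries, 3 *ARF* genes had a mean of at least 400 TPM, 8 lay between 106 and 285 TPM, 6 between 34.4 and 75.6 TPM and 3 between 7.68 and 12.1 TPM. The median *ARF* gene tested stood at the 91.0th percentile of all genes in the table, 8538 of which were at 0 in every library. Solyc10g086130 was the exception, listed at 0 in 7 libraries and at 0.0413 TPM in *ej2* *j2* replicate 3.

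The 3 most abundant *ARF* genes, Solyc07g016180, Solyc01g103050 and Solyc03g118290, held 47.6% of the *ARF* total. Solyc07g016180 was at 99.2, 549, 3008 and 33.9 TPM in *ej2* *j2* replicates 1 to 4 and at 814, 212, 433 and 116 TPM in *plt3* *plt7* replicates 1 to 4, the order used throughout. Its *ej2* *j2* libraries thus spanned a factor of 88.7, with replicate 3 far above the rest, and they enclosed all the *plt3* *plt7* values (log2 difference 0.15, standard error (s.e.) 0.93, adjusted p = 0.972, limma; 1.30 without *ej2* *j2* replicate 3 and -0.84 without *ej2* *j2* replicate 4).
Solyc01g103050 was at 648, 825, 570.0 and 133 TPM in *ej2* *j2* and at 721, 132, 484 and 456 TPM in *plt3* *plt7*. A single library of each genotype, at 133 and 132 TPM, lay below all the others (log2 difference -0.23, s.e. 0.92, adjusted p = 0.953, limma; 0.27 without *plt3* *plt7* replicate 2 and -0.82 without *ej2* *j2* replicate 4). Solyc03g118290 was at 90.6, 231, 618 and 531 TPM in *ej2* *j2* and at 564, 403, 778 and 623 TPM in *plt3* *plt7*. The *plt3* *plt7* libraries were close together, within a factor of 1.93, whereas those of *ej2* *j2* spread over a factor of 6.82 and overlapped with them (log2 difference 0.996, s.e. 0.92, adjusted p = 0.713, limma; 0.44 without *ej2* *j2* replicate 1).

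Which *ARF* gene was highest changed from library to library. Solyc03g118290 led in 3 libraries, Solyc07g016180 in 2, and Solyc01g103050, Solyc02g077560 and Solyc05g047460 in 1 each. Solyc02g077560 was at 137, 310.5, 54.7 and 118 TPM in *ej2* *j2* and at 401, 108, 1062 and 92.7 TPM in *plt3* *plt7*. It was high in 2 *plt3* *plt7* libraries and within the *ej2* *j2* range in the other 2 (log2 difference 0.98, adjusted p = 0.717, limma; 0.30 without *plt3* *plt7* replicate 3 and 1.47 without *plt3* *plt7* replicate 4). Solyc05g047460 was at 288, 1455, 154 and 13.8 TPM in *ej2* *j2* and at 17.2, 10.7, 159 and 179 TPM in *plt3* *plt7*. Its log2 difference of -1.83 (s.e. 0.93, adjusted p = 0.364, limma) was -0.81 without *ej2* *j2* replicate 2, the library that stands apart, and -3.02 without *ej2* *j2* replicate 4 (adjusted p = 0.794 and 0.103, limma). Solyc04g081240 was at 134, 15.8, 161 and 489 TPM in *ej2* *j2* and at 47.0, 372, 324 and 138 TPM in *plt3* *plt7*, with full overlap.

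**Figure D1:**
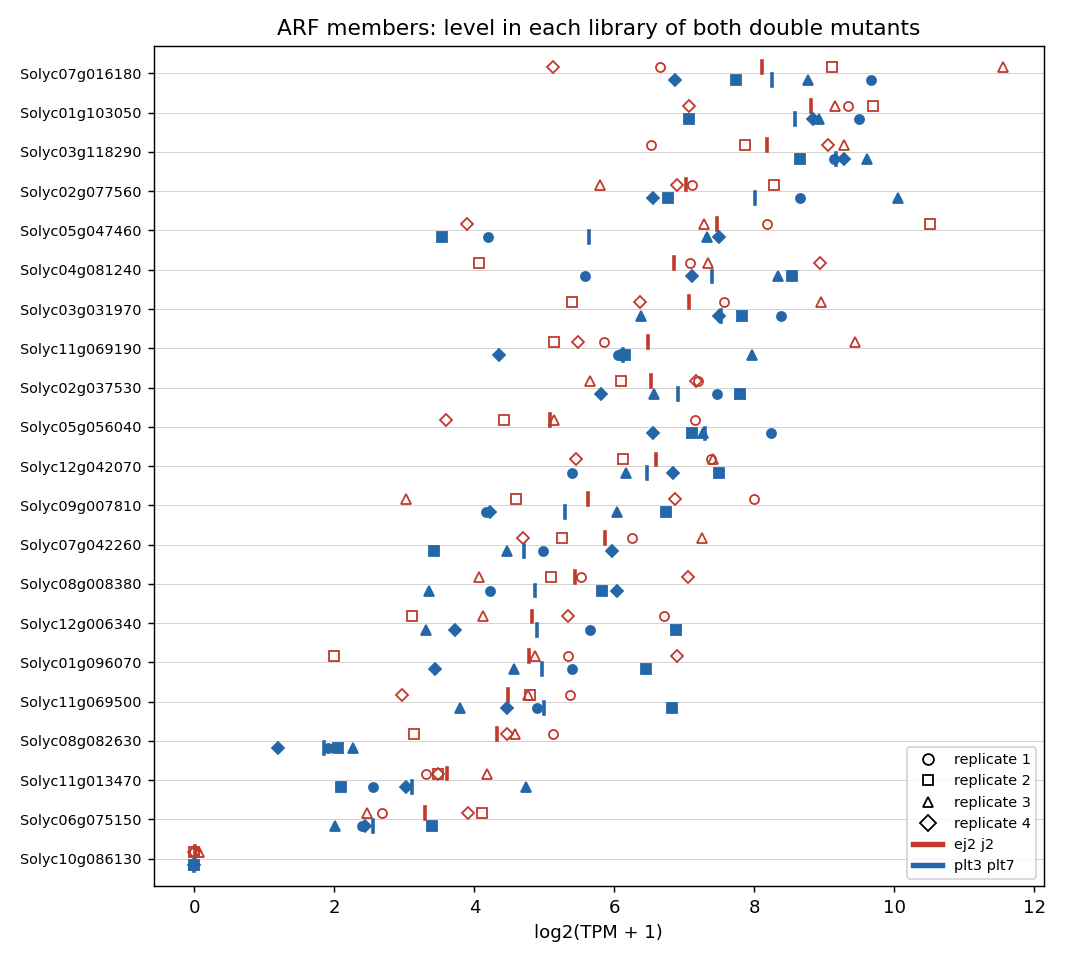
Levels of the 21 *ARF* members as log2(TPM + 1) on the horizontal axis, ordered by mean TPM, with open red symbols for *ej2* *j2*, filled blue symbols for *plt3* *plt7*, a symbol shape for each replicate and a vertical bar at each genotype's mean. The symbols of both genotypes overlap for every tested member other than Solyc08g082630, and the levels run from near 0 for Solyc10g086130 to 3008 TPM for Solyc07g016180.

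Solyc08g082630 was the one tested *ARF* gene with no overlap between the genotypes. It was at 34.0, 7.83, 22.9 and 20.997 TPM in *ej2* *j2* and at 2.76, 3.15, 3.81 and 1.28 TPM in *plt3* *plt7*. Every *plt3* *plt7* library lay below the lowest *ej2* *j2* library, which was replicate 2. The means were 21.4 ± 10.7 TPM and 2.75 ± 1.07 TPM (s.d., n = 4 each), a ratio of 7.79. The log2 difference of -2.47 (s.e. 0.83, 95% interval -4.11 to -0.83) did not pass the test (unadjusted p = 0.00321, adjusted p = 0.0933, limma), and was -2.87 without *ej2* *j2* replicate 2 (adjusted p = 0.0559, limma). The adjusted p ran from 0.0559 to 0.273 over 15 other settings (limma). An exact two-sided permutation test of this gene gave p = 0.0286, the smallest that 4 against 4 libraries allow. Any gene without overlap gives this value, so it restates the lack of overlap and adds no support. The exact test was run for 40 members and gave this value for 2, with no adjustment. A single gene without overlap is 5.0% of the 20 *ARF* members tested, and 6.87% of all genes tested had no overlap.

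Of the tested members, Solyc05g056040 had the largest difference towards *plt3* *plt7*. It was described after its values were seen, as were the members outside the most abundant, the non-overlapping and the neighbouring ones. It was at 141, 20.4, 34.2 and 11.1 TPM in *ej2* *j2* and at 302, 138, 153 and 92.9 TPM in *plt3* *plt7*. Only *ej2* *j2* replicate 1 reached the *plt3* *plt7* range. The log2 difference of 2.22 (s.e. 0.91, 95% interval 0.43 to 4.01) had an adjusted p = 0.212 (limma; by exact permutation, p = 0.0857) and was 2.91 without *ej2* *j2* replicate 1 (adjusted p = 0.118, limma). Solyc07g042260 was at 75.3, 37.1, 152 and 24.9 TPM in *ej2* *j2* and at 30.7, 9.72, 21.02 and 61.4 TPM in *plt3* *plt7* (log2 difference -1.16, adjusted p = 0.635, limma). These genes and Solyc05g047460 were the *ARF* members with a difference of at least 1 in size, together with Solyc08g082630. They are 4 of 20, or 20.0%, whereas 34.1% of all genes tested reached this size.

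For the other 18 tested *ARF* genes the 95% interval of the difference held 0. The differences of all 20 ran from -2.47 to 2.22, with 10 above 0 and 10 below 0, and their median was -0.03 beside 0.05 for all genes tested. The median was 0.26, 0.12 and 0.35 without *ej2* *j2* replicate 1, *ej2* *j2* replicate 3 and *plt3* *plt7* replicate 4, and -0.43 without *ej2* *j2* replicate 2, so its sign rested on single libraries. Solyc03g031970 was at 188, 41.2, 493 and 81.4 TPM in *ej2* *j2* and at 334, 226, 82.1 and 179.5 TPM in *plt3* *plt7*, with nearly equal means of 201 and 205 TPM. Solyc12g042070 had means of 112 and 101 TPM, and Solyc02g037530 of 101 and 137 TPM. Solyc11g069190 was at 691 TPM in *ej2* *j2* replicate 3 and at 34.3 to 56.9 TPM in the other libraries of that genotype, against 19.5 to 248 TPM in *plt3* *plt7*. Solyc09g007810, Solyc08g008380, Solyc12g006340, Solyc01g096070 and Solyc11g069500, in the middle of the range, had differences between -0.57 and 0.52. Solyc06g075150 and Solyc11g013470, both low, had differences of -0.74 and -0.51.

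Transcripts of the listed *Aux/IAA* genes were fewer, and Solyc04g076850 was the highest member in 6 of 8 libraries. It held 58.9% of the *Aux/IAA* total in *ej2* *j2* and 34.6% in *plt3* *plt7*, with 16.0% to 75.8% in single *ej2* *j2* libraries and 11.9% to 51.8% in single *plt3* *plt7* libraries. Its level was 1030.2, 492, 86.7 and 1002 TPM in *ej2* *j2* and 431, 102, 395 and 278 TPM in *plt3* *plt7*. The highest *plt3* *plt7* library lay below 3 of the 4 *ej2* *j2* libraries, and *ej2* *j2* replicate 3 lay below all other libraries. The log2 difference was -0.80 (s.e. 0.92, 95% interval -2.61 to 1.02, adjusted p = 0.788, limma) and -1.59 without *ej2* *j2* replicate 3 (adjusted p = 0.545, limma). It was -0.34, -0.41 and -0.42 without *plt3* *plt7* replicate 2, *ej2* *j2* replicate 1 and *ej2* *j2* replicate 4.
In *ej2* *j2* replicate 3 and *plt3* *plt7* replicate 2, the highest member was Solyc03g121060. This gene was at 56.8, 59.1, 221 and 85.7 TPM in *ej2* *j2* and at 106, 278, 26.4 and 112 TPM in *plt3* *plt7*, so that its high libraries were those in which Solyc04g076850 was low. Solyc01g097290 followed, at 78.7, 29.2, 26.6 and 19.1 TPM in *ej2* *j2* and at 74.9, 7.50, 290.5 and 111 TPM in *plt3* *plt7*. Both genotypes overlapped for each of these genes (log2 differences 0.12 and 0.99, adjusted p = 0.980 and 0.711, limma). The difference of Solyc01g097290 was 0.29 without *plt3* *plt7* replicate 3 and 1.99 without *plt3* *plt7* replicate 2.

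**Figure D2:**
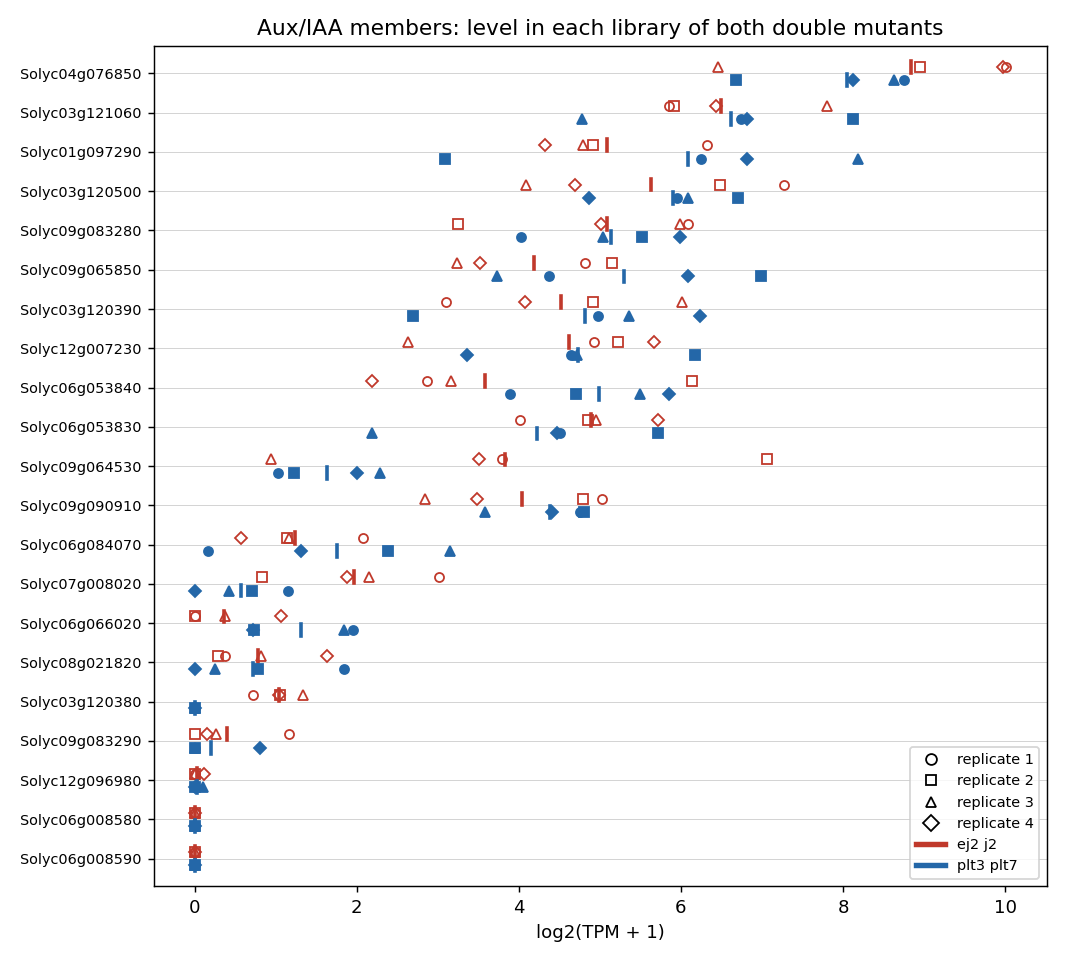
Levels of the 21 *Aux/IAA* members as log2(TPM + 1) on the horizontal axis, ordered by mean TPM, with open red symbols for *ej2* *j2*, filled blue symbols for *plt3* *plt7*, a symbol shape for each replicate and a vertical bar at each genotype's mean. Solyc04g076850 reached 1030.2 TPM, and 6 members at the bottom had means under 1 TPM, of which Solyc03g120380 was above 0 only in *ej2* *j2*.

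The *Aux/IAA* genes with the lowest differences were Solyc09g064530 and Solyc07g008020, both at an unadjusted p under 0.05 only. Solyc09g064530 was at 12.9, 133, 0.920 and 10.4 TPM in *ej2* *j2* and at 1.05, 1.35, 3.88 and 3.01 TPM in *plt3* *plt7*. In *ej2* *j2*, 3 libraries lay above all of *plt3* *plt7* and replicate 3 lay below them. The log2 difference was -2.19 (s.e. 0.81, adjusted p = 0.144, limma; by exact permutation, p = 0.143), -1.11 without *ej2* *j2* replicate 2 and -3.15 without *ej2* *j2* replicate 3 (adjusted p = 0.545 and 0.0656, limma). Solyc07g008020 was at 7.11, 0.773, 3.45 and 2.68 TPM in *ej2* *j2* and at 1.22, 0.640, 0.348 and 0 TPM in *plt3* *plt7*. Its means were 3.50 and 0.553 TPM, so it reached the filter only through *ej2* *j2*. It overlapped only through *ej2* *j2* replicate 2 (log2 difference -1.40, s.e. 0.60, adjusted p = 0.249, limma; -1.78 without that library, adjusted p = 0.120, limma; by exact permutation, p = 0.0571).

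Solyc03g120380, too low to be tested, was above 0 in every *ej2* *j2* library and listed at 0 in every *plt3* *plt7* library. Its levels were 0.648, 1.07, 1.53 and 1.06 TPM in *ej2* *j2*. A mean of 0.538 TPM over the 8 libraries kept it under the filter. Without the filter its log2 difference was -1.04 (s.e. 0.17, unadjusted p = 7.32e-05, adjusted p = 0.0778, limma). The *plt3* *plt7* values, all at 0, had no spread. That fit is not the one used for the other members, and 11 genes passed in it instead of 359. The exact two-sided permutation test gave p = 0.0286, the smallest possible, which any gene without overlap gives. Of 6027 genes that were above 0 in a library with a mean under 1 TPM, 257 (4.26%) had no overlap between the genotypes and 66 (1.1%) were likewise above 0 in every *ej2* *j2* library and at 0 in every *plt3* *plt7* library.
Solyc06g066020 was at 0, 0, 0.297 and 1.09 TPM in *ej2* *j2* and at 2.89, 0.669, 2.597 and 0.645 TPM in *plt3* *plt7*. Its means were 0.346 and 1.70 TPM, so it reached the filter only through *plt3* *plt7*. It is an *Aux/IAA* gene listed at 0 in *ej2* *j2* libraries and above 0 in all *plt3* *plt7* libraries, with overlap through *ej2* *j2* replicate 4 (log2 difference 0.96, s.e. 0.54, adjusted p = 0.441, limma).

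*Aux/IAA* genes with neighbouring identifiers, which by their numbering lie close together on a chromosome, differed in level. Solyc03g120390, next in number to Solyc03g120380, was at 7.57, 29.1, 63.5 and 15.9 TPM in *ej2* *j2* and at 30.5, 5.48, 40.0 and 74.5 TPM in *plt3* *plt7*. It was thus well expressed in the *plt3* *plt7* libraries in which its neighbour was listed at 0 (log2 difference 0.29, adjusted p = 0.939, limma). Solyc09g083280 was at 67.1, 8.50, 62.4 and 31.4 TPM in *ej2* *j2* and at 15.3, 45.0, 31.8 and 62.3 TPM in *plt3* *plt7*, whereas its neighbour Solyc09g083290 reached at most 1.23 TPM.
The pair Solyc06g053830 and Solyc06g053840 had similar means, 27.9 and 28.4 TPM over the 8 libraries. In *ej2* *j2*, Solyc06g053830 was at 15.2, 28.0, 30.1 and 51.8 TPM and Solyc06g053840 at 6.27, 69.5, 7.97 and 3.56 TPM. In *plt3* *plt7*, Solyc06g053830 was at 21.8, 51.7, 3.54 and 21.1 TPM and Solyc06g053840 at 13.8, 25.1, 44.2 and 56.7 TPM. Which of both was higher thus changed between libraries of one genotype. The log2 differences of -0.67 and 1.40 had adjusted p = 0.8294 and 0.521 (limma), and that of Solyc06g053840 was 2.25 without *ej2* *j2* replicate 2. Solyc06g008580 and Solyc06g008590 were listed at 0 in all 8 libraries. Reads that fit more than one such paralogue may have been split or dropped, and the rule applied is not stated in the methods.

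The remaining *Aux/IAA* genes overlapped between the genotypes. Over the 15 tested members the differences ran from -2.19 to 1.40, with 11 above 0 and 4 below 0, where 52.0% of all genes tested were above 0. Among them, Solyc09g083280 at 0.06 turned below 0 when the libraries were rescaled. The median was 0.27 beside 0.05 for all genes tested, and -0.00198 without *plt3* *plt7* replicate 2. Of the 15 members, 4 (26.7%) reached a difference of 1 in size. One of them was Solyc09g065850, at 27.2, 34.5, 8.46 and 10.5 TPM in *ej2* *j2* and at 19.8, 126, 12.3 and 67.1 TPM in *plt3* *plt7* (log2 difference 1.11, adjusted p = 0.652, limma; 0.55 without *plt3* *plt7* replicate 2). Solyc03g120500, Solyc12g007230 and Solyc09g090910 had means of 70.8, 30.2 and 18.7 TPM in *ej2* *j2* and of 64.7, 32.5 and 21.04 TPM in *plt3* *plt7*. Solyc06g084070 had means of 1.54 and 3.43 TPM. Solyc08g021820 had means of 0.850 and 0.876 TPM, and Solyc12g096980 was at most at 0.0877 TPM.

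**Figure D3:**
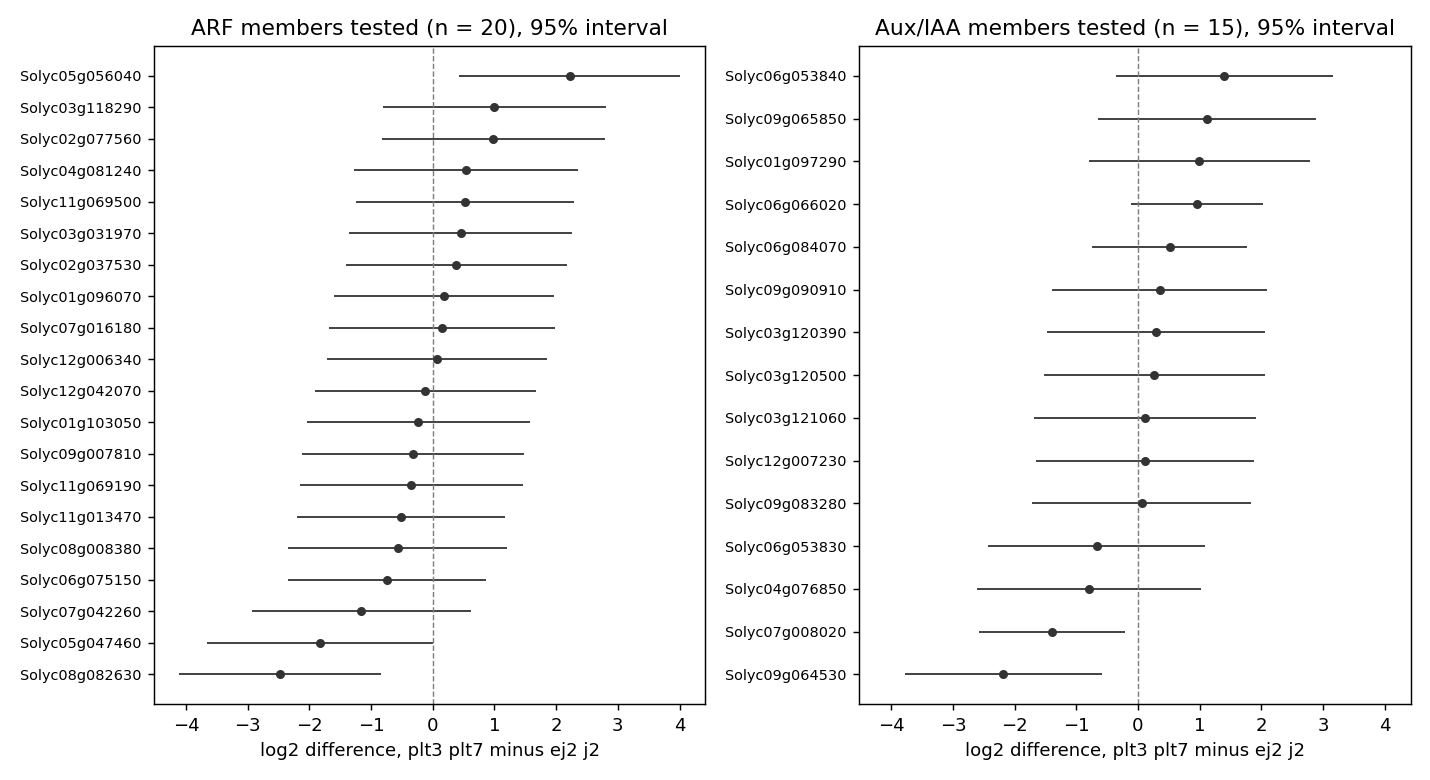
Log2 differences on the log2(TPM + 1) scale, *plt3* *plt7* minus *ej2* *j2*, of the 20 *ARF* and 15 *Aux/IAA* members tested, as points with 95% intervals from limma and a dashed line at 0. The intervals of Solyc08g082630, Solyc05g056040, Solyc09g064530 and Solyc07g008020 leave out 0 before adjustment for 19544 genes, and no member passed after it. Solyc07g008020 reached the filter at a mean of 1 TPM only through *ej2* *j2*.

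The intervals show what sizes of difference the fit leaves possible, with a spread taken mostly from genes of similar level. They do not reflect the wider spread of members such as Solyc05g047460 and Solyc07g016180. Within a genotype, the s.d. of log2(TPM + 1) of these members was 2.43 and 2.17, beside an s.e. of 0.93 for each difference. The 95% intervals reached 1.61 to 1.84 to either side of the difference on the log2 scale for the *ARF* members and 1.07 to 1.81 for the *Aux/IAA* members (limma). For 17 of 20 *ARF* and 13 of 15 *Aux/IAA* members the interval lay between -3 and 3, which is 8-fold in TPM + 1 in either direction. In TPM itself, larger changes remain possible for the members with low levels. The interval stayed below 1 for 4 *ARF* and 2 *Aux/IAA* members and above -1 for 3 *ARF* and 5 *Aux/IAA* members. The median spread of a member within a genotype, as an s.d. of log2(TPM + 1), was 1.21 for the *ARF* and 1.19 for the *Aux/IAA* members, beside 1.10 for all genes tested. Restricted to genes averaging 3 or more on this scale it was 1.24, 1.25 and 1.19 in the same order.

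Summed over the listed members of each family, the libraries of both genotypes overlapped. Genes of either family outside the lists are not in these sums. The 21 *ARF* genes summed to 2700.4, 3784, 6292 and 2123 TPM in *ej2* *j2* and to 3679.6, 2575, 4058 and 2264 TPM in *plt3* *plt7*. The means were 3725 ± 1845 and 3144 ± 860.4 TPM (s.d., n = 4 each), so the difference between them was below the spread within *ej2* *j2*. The 21 *Aux/IAA* genes summed to 1529.6, 1037, 543 and 1322 TPM in *ej2* *j2* and to 832, 849.7, 962 and 847 TPM in *plt3* *plt7*. Their means were 1108 ± 427 and 873 ± 59.8 TPM (s.d., n = 4 each), and the *plt3* *plt7* libraries lay within the range of *ej2* *j2*.
Transcripts of the listed *ARF* genes outnumbered those of the listed *Aux/IAA* genes in every library. The ratio of both sums was 1.77, 3.65, 11.6 and 1.61 in *ej2* *j2* and 4.42, 3.03, 4.22 and 2.67 in *plt3* *plt7*. In *ej2* *j2* replicate 3 the *ARF* sum was the highest and the *Aux/IAA* sum the lowest of all 8 libraries. There, Solyc07g016180 held 47.8% of the *ARF* sum, and 6 of the 15 tested *Aux/IAA* members had their lowest level of the 8 libraries.

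**Figure D4:**
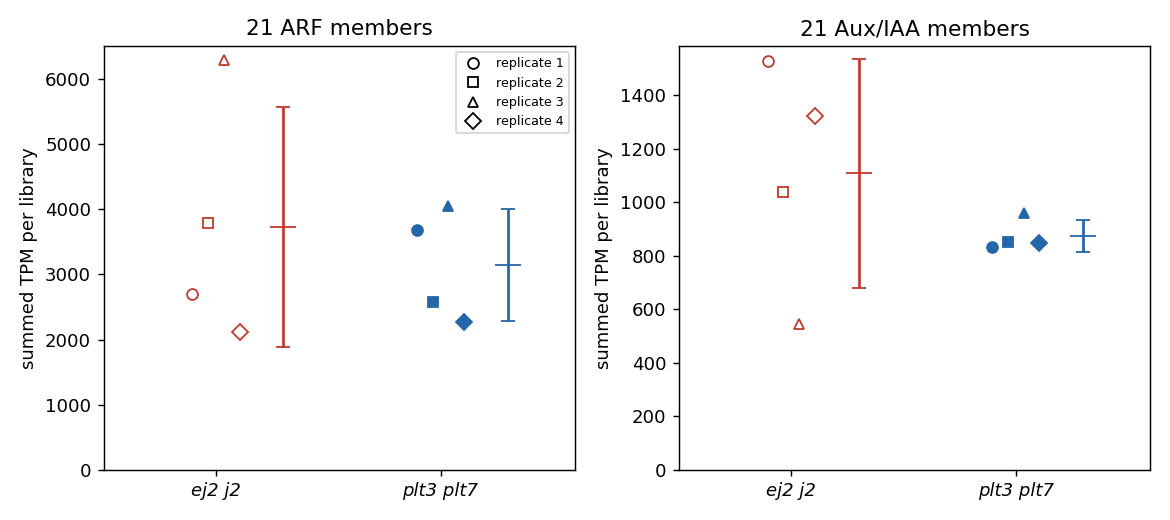
Summed TPM per library of the 21 *ARF* members (left) and the 21 *Aux/IAA* members (right), with a symbol for each replicate and the mean with s.d. (n = 4) beside each genotype. The *Aux/IAA* sums of *plt3* *plt7* lie between 832 and 962 TPM, inside the *ej2* *j2* range of 543 to 1530 TPM.

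Other genes of the auxin pathway also gave no call. The identifiers of these lists were paired with their function from general knowledge, and the tables used here do not check the pairing. None of 5 tested auxin synthesis genes, 9 transport genes, 3 receptor genes, 5 *TOPLESS*-type corepressor genes or 8 *GH3*-type conjugation genes passed (limma). At an unadjusted p under 0.05 there were 0, 1, 0, 1 and 2 in the same order (limma), beside 13.8% of all genes tested. Their median log2 differences were -0.26, -0.33, 0.20, -0.18 and 0.66.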

How the data were processed

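RNA of inflorescence meristems was sequenced after removal of ribosomal RNA. The authors trimmed reads with Trimmomatic, used STAR 2.6.1 for alignment against annotated cDNA sequences of the SL4.0 assembly and deposited TPM values calculated in R. The strand setting was not stated, and depth is unknown. log2(TPM + 1) values of 19544 genes (mean 1 TPM or higher) among 34109 in the table were compared with limma 3.58.1 under R 4.3.3 (moderated by level, two-sided, Benjamini-Hochberg adjustment over all genes tested). Python 3.11.15 was used for plots and summaries. limma took 365 prior beside 6 residual degrees of freedom, so each standard error comes mostly from genes of similar level. Intervals are 95% intervals of the fit. The labels name 4 plants but do not tie each library to a plant, so p-values measure only the spread between these libraries.

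The members and lists were chosen with earlier results of these data known. Values in every library were to be given for members past the threshold, members without overlap, the 3 most abundant of each family, members at 0 in one genotype only and neighbouring *Aux/IAA* pairs. Other members were named after their values were seen. The RefSeq gene table (assembly SLM_r2.1, 41476 entries) held 0 of these identifiers, so members are given by identifier, without names, roles or sequences.

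The fit was tested on simulated data made from the means and spreads of these genes. In them, 200 genes averaging at least 3 in log2(TPM + 1) were changed. Alternatives were a pseudocount of 0.1, no filter or a filter at 5 TPM, quantile normalization, median-of-ratios rescaling, a replicate block, weighted libraries and leaving out each library.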

Additional observations from a re-analysis of the deposited data

Results flagged for a closer look

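In 6 of 70 groups of 4 libraries of a tested member (8.57%), the highest library lay far from the others. Chance sets apart about 5% of groups if values follow a normal distribution, and 12.5% of such groups were set apart among all genes tested. Solyc11g069190 was at 691 TPM in *ej2* *j2* replicate 3, where the next library was at 56.9 TPM. In the same library Solyc11g013470 was at 17.2 TPM, against 10.2 TPM in the next. Solyc06g053840 was at 69.5 TPM in *ej2* *j2* replicate 2, against 7.97 TPM, and Solyc09g064530 was at 133 TPM there, against 12.9 TPM. Solyc01g097290 was at 78.7 TPM in *ej2* *j2* replicate 1, against 29.2 TPM. Solyc11g069500 was at 112 TPM in *plt3* *plt7* replicate 2, against 28.8 TPM.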

How the results depend on the processing

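No *ARF* or *Aux/IAA* member passed the test under any of the 15 alternatives, with a lowest adjusted p of 0.0559 (limma). The 359 genes that differed among all genes were 11 without a filter on low values, 229 at a minimum mean of 5 TPM, and 135 to 447 when a library was left out. They were 180, 151, 221, 135 and 138 without *ej2* *j2* replicates 1, 3 and 4 and *plt3* *plt7* replicates 1 and 4. Same-numbered libraries did not deviate together (correlations -0.0327 to 0.0126), and with a replicate block 303 genes differed, 0 of them members (lowest adjusted p = 0.102, limma). The mean *Aux/IAA* sum of *plt3* *plt7* was 792 TPM after rescaling by the median of ratios, instead of 873 TPM. Solyc12g006340 turned to -0.00365 under that rescaling, and Solyc09g083280 to -0.018 under it, -9.70e-05 under quantile normalization and -0.0345 with library weights. Leaving out a library turned the sign of 17 members, none of which passed the test. Their log2 differences then ranged as follows: Solyc01g096070 (-0.74 to 0.90), Solyc01g103050 (-0.82 to 0.27), Solyc03g031970 (-0.10 to 1.08), Solyc03g120390 (-0.18 to 1.00), Solyc03g120500 (-0.25 to 0.81), Solyc03g121060 (-0.39 to 0.73), Solyc04g081240 (-0.39 to 1.24), Solyc06g053830 (-1.17 to 0.00857), Solyc07g016180 (-0.84 to 1.30), Solyc09g007810 (-1.19 to 0.47), Solyc09g083280 (-0.56 to 0.43), Solyc09g090910 (-0.0479 to 0.68), Solyc11g069190 (-0.96 to 0.63), Solyc11g069500 (-0.0907 to 0.92), Solyc12g006340 (-0.59 to 0.70), Solyc12g007230 (-0.55 to 0.57) and Solyc12g042070 (-0.50 to 0.24). The cause was not tested. The other 18 tested members kept their sign under each alternative that gave a value. Unknown depth limits the low members, whose zeros cannot be told from too few reads.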

Other observations

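A tested corepressor gene of the pathway had libraries that did not overlap between the genotypes. Solyc08g076030, listed among *TOPLESS*-type corepressors from general knowledge, was at 715, 560, 676 and 237 TPM in *ej2* *j2* and at 38.9, 78.6, 146 and 72.5 TPM in *plt3* *plt7*. The log2 difference of -2.72 (s.e. 0.91) did not pass the test (adjusted p = 0.0922, limma). The other 4 tested corepressor genes had differences between -0.45 and 1.23, and Solyc08g029050, under the filter, was at 0.961 to 2.29 TPM in *ej2* *j2* and at 0.0390 to 0.251 TPM in *plt3* *plt7*. Among the *GH3*-type genes, whose *Arabidopsis* counterparts conjugate auxin to amino acids, Solyc10g011660 was at 15.5, 1.43, 6.76 and 2.55 TPM in *ej2* *j2* and at 39.2, 29.3, 28.7 and 21.9 TPM in *plt3* *plt7*. These libraries did not overlap either, and the log2 difference of 2.39 (s.e. 0.87) had an adjusted p = 0.136 (limma). Of all genes tested 6.87% had no overlap, as had 4.26% of the genes under the filter that were above 0 in a library. The 3 genes named here were chosen after their values were seen.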
